A study of Mus musculus with 10 samples.

Results

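Glycolysis genes and targets of the hypoxia-inducible factor (HIF) were followed as 1 set of 51 named genes out of 46095 gene symbols in the count table, grouped here by their known roles. The genes were picked with earlier results of these data in view. All 51 were in the table and all 51 passed the filter on low counts that left 15335 genes for testing. RNA-seq compared 3 libraries of C3H10 T1/2 cells under cyclic mechanical strain (CMS) with 3 libraries of static control cells (NC). C3H10 T1/2 is a line of mesenchymal cells from mouse embryos that serves as an osteogenic model, and the labels give its mouse strain as C57BL/6. Both groups were seeded at 100000 cells per mL on collagen-coated flexible plates and grown for 48 h. The strain group was then stretched sinusoidally at 0.5 Hz to 10% elongation for 8 h per day over 3 days, and the control group was kept static. Chromatin accessibility was measured by ATAC-seq, which cuts and tags open DNA with the Tn5 transposase, in another pair of groups of the same line: 2 libraries with a CRISPR/Cas9 knockout of the stretch-gated ion channel gene Piezo1 and 2 GFP control libraries, with no strain stated. Neither the source of the replicates (separate cultures or not) nor the clonality of the knockout cells is stated in the labels. The p-values therefore cover the spread among these libraries alone, and this spread may be technical.

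HIF is a dimer of an oxygen-regulated alpha subunit, encoded by Hif1a or Epas1, and a constant beta subunit. When oxygen is present, prolyl hydroxylases of the EGLN family mark the alpha subunit, the VHL protein binds the mark and the subunit is degraded, so control lies largely on the protein and not on the Hif1a mRNA. When oxygen is scarce the dimer binds a short DNA core, the hypoxia response element, and raises transcription of glucose transporters, glycolytic enzymes, mitophagy receptors and its own EGLN regulators. In bone and its precursor cells this pathway is known for glycolytic metabolism, glycogen storage and collagen hydroxylation.

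Promoter sequences are shown for 6 members: the called member of largest fold change among the glycolytic, oxygen-sensing, mitophagy, glycogen and remaining HIF target genes, and Hif1a, which was the 1 member called higher. Each run covers 250 bases before to 50 bases after a start site, 5′ to 3′ on the gene's strand, from RefSeq on GRCm38.p6 (the mm10 build). For Egln1, Bnip3 and Ppp1r3c that site is the outermost 5′ end of the gene. For Pfkp it lies 289 bases, for Ankrd37 564 bases and for Hif1a 6543 bases inside the gene, at another start, and no window of the outermost end was used for these 3. Capitals mark the response element core, ACGTG or GCGTG, on either strand, where the other strand reads CACGT or CACGC. Overlapping cores run together, and CACGTG, the E-box of other factors, holds the core on both strands.
Pfkp, chr13:6648722-6649021, minus strand: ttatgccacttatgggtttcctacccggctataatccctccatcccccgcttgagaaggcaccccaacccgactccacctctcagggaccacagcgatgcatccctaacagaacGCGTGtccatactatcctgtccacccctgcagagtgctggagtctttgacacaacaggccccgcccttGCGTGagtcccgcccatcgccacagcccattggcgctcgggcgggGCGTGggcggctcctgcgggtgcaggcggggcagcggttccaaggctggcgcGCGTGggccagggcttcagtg
Egln1, chr8:124949205-124949504, minus strand: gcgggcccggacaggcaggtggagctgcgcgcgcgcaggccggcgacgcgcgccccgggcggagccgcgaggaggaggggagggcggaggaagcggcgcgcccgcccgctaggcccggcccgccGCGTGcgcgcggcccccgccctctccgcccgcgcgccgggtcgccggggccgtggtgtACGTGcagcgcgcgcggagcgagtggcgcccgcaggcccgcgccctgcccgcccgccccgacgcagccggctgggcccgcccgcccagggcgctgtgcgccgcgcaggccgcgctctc
Hif1a, chr12:73907617-73907916, plus strand: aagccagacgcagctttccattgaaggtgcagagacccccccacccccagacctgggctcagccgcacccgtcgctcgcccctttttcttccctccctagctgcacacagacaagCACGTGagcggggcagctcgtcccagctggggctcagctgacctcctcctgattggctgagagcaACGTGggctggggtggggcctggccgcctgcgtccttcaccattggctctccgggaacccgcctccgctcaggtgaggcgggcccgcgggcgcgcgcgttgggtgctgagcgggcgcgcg
Bnip3, chr7:138909457-138909756, minus strand: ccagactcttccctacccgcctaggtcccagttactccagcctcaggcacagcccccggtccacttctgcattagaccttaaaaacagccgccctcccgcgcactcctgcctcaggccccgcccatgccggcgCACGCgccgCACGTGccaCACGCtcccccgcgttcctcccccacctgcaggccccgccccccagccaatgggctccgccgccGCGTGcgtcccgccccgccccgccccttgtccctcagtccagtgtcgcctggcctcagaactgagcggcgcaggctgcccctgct
Ppp1r3c, chr19:36736555-36736854, minus strand: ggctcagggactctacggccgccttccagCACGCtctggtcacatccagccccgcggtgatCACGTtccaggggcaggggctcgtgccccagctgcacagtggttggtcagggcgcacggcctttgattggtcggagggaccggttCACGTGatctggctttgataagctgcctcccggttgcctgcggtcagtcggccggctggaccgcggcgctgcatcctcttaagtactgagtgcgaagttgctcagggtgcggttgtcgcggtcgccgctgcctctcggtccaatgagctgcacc
Ankrd37, chr8:45999801-46000100, minus strand: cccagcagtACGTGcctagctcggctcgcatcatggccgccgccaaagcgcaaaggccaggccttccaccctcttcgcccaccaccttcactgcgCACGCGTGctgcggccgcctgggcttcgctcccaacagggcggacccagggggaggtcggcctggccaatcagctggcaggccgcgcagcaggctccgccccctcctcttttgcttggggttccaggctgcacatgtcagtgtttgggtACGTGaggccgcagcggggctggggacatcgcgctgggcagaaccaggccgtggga
The core occurs 4 times in the Pfkp window, 2 times in that of Egln1, 3 times in that of Hif1a, 5 times in that of Bnip3, 4 times in that of Ppp1r3c and 4 times in that of Ankrd37. The windows of Hif1a, Bnip3 and Ppp1r3c also hold CACGTG. A match is a description of the letters and was not measured as a bound site.

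The libraries held 36150738 to 41024689 counts. Counts of replicates differed beyond sampling noise in every pair (chi-square per degree of freedom of 9.19 or more). Control replicate 3 stood apart from control replicates 1 and 2 (37.5 and 59.6, against 9.19 between those 2 libraries), and strain replicate 1 from strain replicates 2 and 3 (44.3 and 34.7, against 15.7). Messages of 89 ribosomal protein genes took 3.16% to 3.78% of the counts in strain libraries and 4.20%, 4.58% and 6.06% in control replicates 2, 1 and 3. Of 9 mesenchymal marker genes 8 were tested, with a summed level of 36962 to 42950 CPM (TMM-scaled counts per 1e6) in strain libraries and 61289 to 62675 CPM in control libraries. Within that sum Col1a1 alone was at 17031 to 19833 CPM in strain libraries and 30255 to 30779 CPM in control libraries, while Thy1 was at or near 0 in every library. The 6 epithelial markers summed to 4.95 to 10.1 CPM in strain libraries and 27.7 to 40.5 CPM in control libraries, mostly Krt19, with Epcam at 0 throughout. The 5 endothelial markers summed to 3.96 to 6.37 CPM in strain libraries and 3.07 to 4.04 CPM in control libraries, and the 6 haematopoietic markers to 3.63 to 4.85 CPM in strain libraries and 2.64 to 3.56 CPM in control libraries. The 4 neural markers summed to 40.1 to 54.8 CPM in strain libraries and 37.1 to 42.6 CPM in control libraries, nearly all of it Tubb3. Erythroid markers were at or near 0. The 13 mitochondrial messages took 0.907% to 1.202% of the counts in strain libraries and 0.865% to 0.901% in control libraries, so every strain library was higher. The part of these differences in the results below was not tested. In bulk RNA, fewer cells of a type and less RNA per cell cannot be told apart.

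Most of the glycolysis and HIF target genes were lower in strained cells. By edgeR's quasi-likelihood test with Benjamini-Hochberg adjustment over all 15335 genes and a threshold of 0.05, 36 of the 51 fell (70.6%), 1 rose (1.96%) and 14 were not called. Over all genes tested, 13.3% were called in either direction, 7.39% lower and 5.94% higher. The median log2 fold change, strain over control, was −0.69 for the 51 genes and 0.0049 for all genes tested. Single values reached from −2.82 for Ankrd37 to 1.35 for Epas1, which was not called, and 45 of the 51 lay below 0. In 39 members all 3 strain libraries were below all 3 control libraries, a pattern seen in 17.9% of all genes tested. In 2 members, Hif1a and Epas1, they were all above, a pattern of 17.4% of all genes. The 51 genes together took 1.41%, 1.44% and 1.54% of the counts in strain replicates 1 to 3 and 1.89%, 1.75% and 2.05% in control replicates 1 to 3. Of the 37 calls, 28 were made in every one of the 6 fits that left out 1 library.

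**Figure D1:**
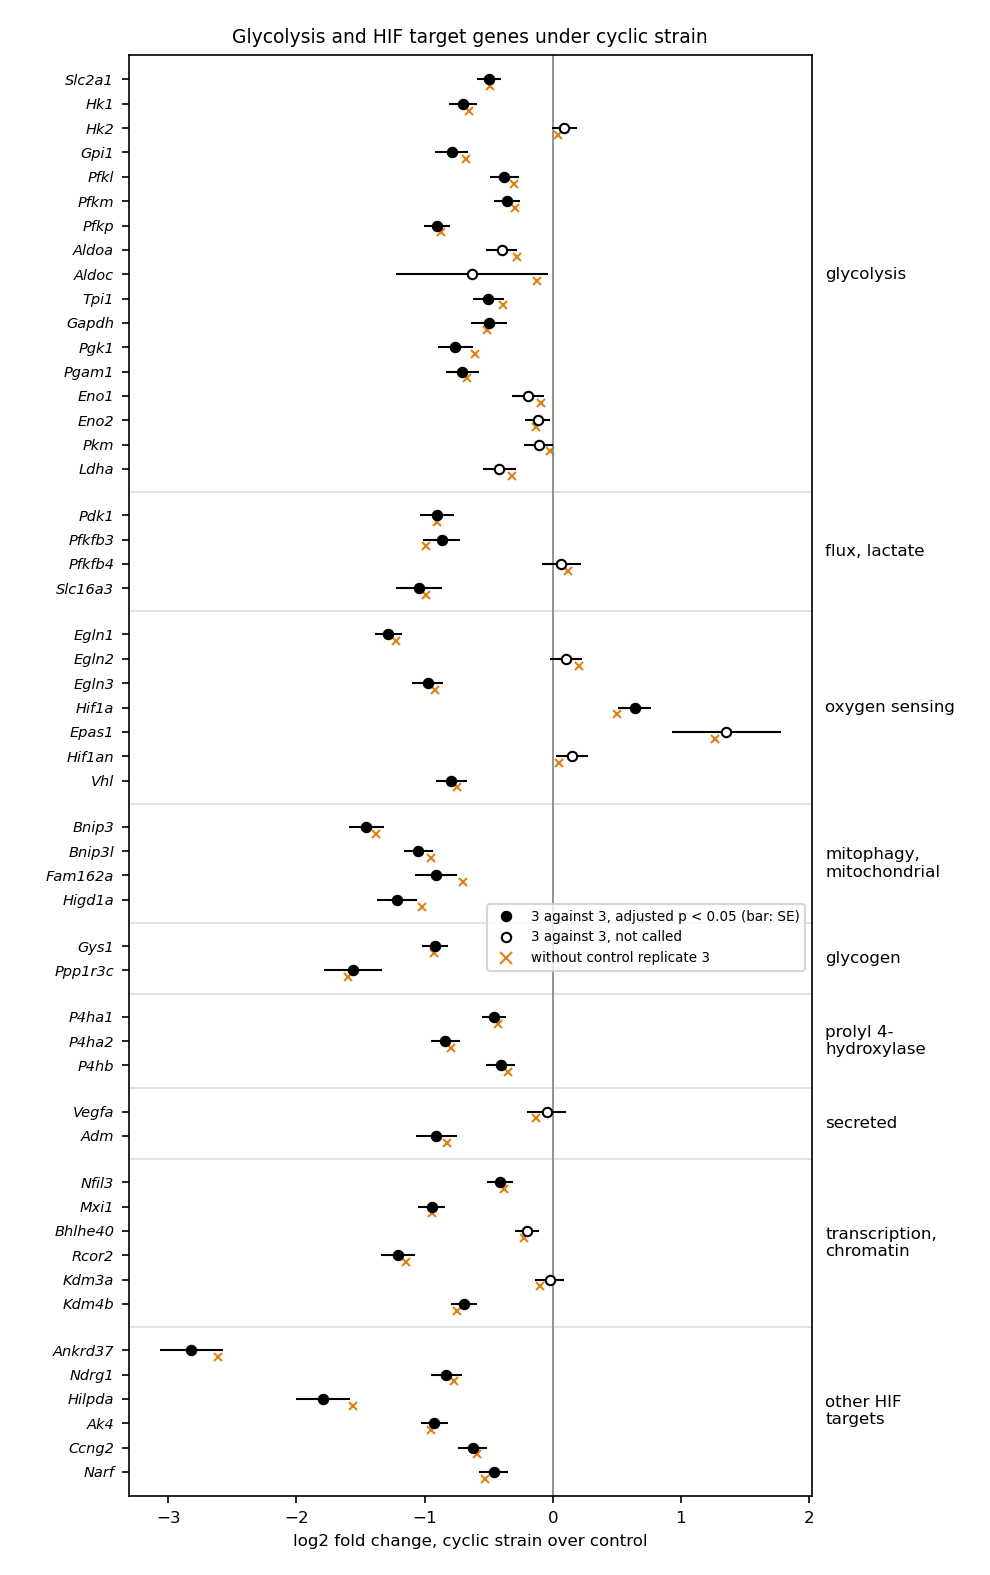
Log2 fold change of each of the 51 genes (horizontal axis, strain over control, zero line drawn), grouped by role down the page. Circles with standard error bars are from all 6 libraries, filled where the adjusted p was under 0.05, and crosses are values without control replicate 3. Nearly all filled circles lie left of 0, with Ankrd37 at −2.82 farthest, and Hif1a at 0.64 is the 1 filled circle to the right.

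Glycolysis begins with glucose entry and trapping, and there the isozymes differed. The glucose transporter gene Slc2a1 was at 154, 162 and 170 CPM in strain replicates 1 to 3 and at 238, 217 and 231 CPM in control replicates 1 to 3 (log2 fold change −0.49, SE 0.094, adjusted p = 0.00703). Hk1, the widely expressed hexokinase that phosphorylates glucose, was at 296, 337 and 358 CPM under strain and 541, 499 and 571 CPM in controls (−0.70, SE 0.11, adjusted p = 0.00236). Every strain library lay below every control library for both genes. Hk2, the inducible hexokinase and a known HIF target, was at 149, 153 and 163 CPM under strain and 152, 150 and 135 CPM in controls (0.09, SE 0.096, adjusted p = 0.563). Its groups overlapped. The call of Slc2a1 was lost without control replicate 1 (adjusted p = 0.0537).

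In the sugar phosphate steps, the platelet-type phosphofructokinase gene had the smallest adjusted p of the glycolytic genes. Pfkp, 1 of 3 genes for the enzyme that commits sugar to glycolysis, was at 84.4, 96.3 and 100.2 CPM under strain and 177, 165 and 183 CPM in controls (log2 fold change −0.90, SE 0.10, adjusted p = 4.42e-04). Gpi1, which converts glucose 6-phosphate to fructose 6-phosphate, was at 471, 502 and 588 CPM under strain and 879, 788 and 1029 CPM in controls (−0.79, SE 0.13, adjusted p = 0.00319). Both genes, like Pfkl, Pfkm and Aldoa below, were lower in every strain library than in any control library. Pfkl, the liver type, averaged 301 ± 29.6 CPM under strain and 391 ± 34.6 CPM in controls (SD, n = 3 each), a change of −0.38 (adjusted p = 0.0486 by edgeR). Pfkm, the muscle type, averaged 61.5 ± 3.66 CPM under strain and 78.8 ± 6.17 CPM in controls, a change of −0.36 (adjusted p = 0.045 by edgeR). The calls of Pfkl and Pfkm were lost in all 6 fits that left out 1 library. Aldoa, the muscle-type aldolase, was at 1406, 1348 and 1552 CPM under strain and 1796, 1681 and 2202 CPM in controls and missed the threshold (−0.40, adjusted p = 0.0567). Aldoc, the brain-type aldolase, averaged 0.430 CPM under strain and 0.674 CPM in controls, and passed the filter through the control libraries alone.

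In the 3-carbon steps, the called genes were Tpi1, Gapdh, Pgk1 and Pgam1. Pgk1, phosphoglycerate kinase, was at 241, 262 and 295 CPM under strain and 423, 388 and 540 CPM in controls (log2 fold change −0.76, SE 0.14, adjusted p = 0.00516). Control replicate 3 was the highest of the 6 libraries, and the value without it was −0.61. Pgam1, the mutase that follows, averaged 128 ± 21.7 CPM under strain and 209 ± 17.0 CPM in controls (−0.71, adjusted p = 0.00569 by edgeR). Tpi1, triosephosphate isomerase, averaged 1001 ± 88.7 CPM under strain and 1419 ± 192 CPM in controls (−0.50, adjusted p = 0.0244 by edgeR). Gapdh averaged 62.6 ± 12.6 CPM under strain and 88.6 ± 1.48 CPM in controls (−0.50, adjusted p = 0.0407 by edgeR). The Tpi1 call was lost in 3 of the 6 fits that left out 1 library (strain replicate 1, strain replicate 2 or control replicate 1) and the Gapdh call in 5 of 6, all but the fit without strain replicate 3. Eno1, an enolase, averaged 583 ± 71.5 CPM under strain and 666 ± 79.0 CPM in controls (adjusted p = 0.333 by edgeR). Pkm, pyruvate kinase, averaged 2721 ± 224 CPM under strain and 2939 ± 305 CPM in controls (adjusted p = 0.556 by edgeR). Ldha, which makes lactate, averaged 1045 ± 122 CPM under strain and 1395 ± 167 CPM in controls, with all strain libraries below all controls but an adjusted p of 0.0529 by edgeR. Ldha was called lower in 5 of the 13 alternative fits and Aldoa in 4, among them DESeq2 (adjusted p = 0.0181 for Ldha and 0.0192 for Aldoa).

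Of the 17 genes of glucose entry and glycolysis, 10 fell (58.8%, against 7.39% of all genes tested) and none rose. Their median log2 change was −0.49. Control replicate 3 was the highest library for 13 of the 17, against 28.2% of all genes tested. It was a median of 0.22 log2 units above the mean of control replicates 1 and 2. Without it 7 of the 17 were called lower, with a median of −0.32, against 5.36% lower of all genes then tested. The summed level of the 17 was 8265, 8782 and 9749 CPM in strain replicates 1 to 3. In control replicates 1 to 3 it was 11189, 10525 and 13042 CPM, so the groups did not overlap with or without control replicate 3. The count of calls was 5 without control replicate 1 and 6 without strain replicate 1 or strain replicate 2. Several of these genes have processed copies elsewhere in the genome, and how reads that map to several places were counted is not given in the sources used here. Of 20 table rows named as copies of members, 6 were tested and 1 was called, against 13.3% of all genes tested. That was Bnip3l-ps, which was lower (adjusted p = 0.00402 by edgeR). In it and in Ldha-ps2, Pgam1-ps2, Pgk1-rs7 and Tpi-rs11 every strain library was below every control library. Their log2 fold changes were −0.27 to −0.87, and 17.9% of all genes tested had this pattern. Whether copies and members shared reads was not tested. Eno1b, a near copy of Eno1, had a log2 fold change of 0.02 (adjusted p = 0.890 by edgeR). The values of Gapdh, Pgk1, Ldha, Eno1, Tpi1, Pgam1, Aldoa and Bnip3l are uncertain for this reason, though no row was named as a copy of Aldoa.

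Of the 4 genes that steer pyruvate and flux or export lactate, 3 fell, against 7.39% of all genes tested, and Pfkfb4 was not called. Pdk1, the kinase that switches off pyruvate dehydrogenase, was at 83.8, 118 and 110.2 CPM in strain replicates 1 to 3 and 204, 185 and 196 CPM in control replicates 1 to 3 (log2 fold change −0.90, SE 0.13, adjusted p = 0.00169). Pfkfb3, which makes the phosphofructokinase activator fructose 2,6-bisphosphate, was at 9.66, 8.90 and 9.35 CPM under strain and 19.1, 17.8 and 13.9 CPM in controls (−0.87, SE 0.15, adjusted p = 0.00377). Slc16a3, the lactate exporter MCT4, was at 5.24, 6.31 and 4.19 CPM under strain and 11.5, 9.30 and 11.6 CPM in controls (−1.04, SE 0.18, adjusted p = 0.0042). All 3 genes separated the groups without overlap, and control replicate 3 was the lowest control for Pfkfb3. Pfkfb4, a related enzyme, was at 7.47, 8.53 and 8.36 CPM under strain and 6.59, 8.34 and 8.34 CPM in controls (log2 fold change 0.07, adjusted p = 0.805 by edgeR), and its groups overlapped.

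Among the oxygen-sensing regulators, members moved in both directions. Hif1a, the alpha subunit itself, was at 698, 726 and 671 CPM in strain replicates 1 to 3 and 480, 505 and 361 CPM in control replicates 1 to 3. This was 1.56-fold higher under strain (log2 fold change 0.64, SE 0.13, adjusted p = 0.00988). Control replicate 3 was the lowest library, and without it the value was 0.50 (adjusted p = 0.00689 by edgeR). Hif1a was called in every alternative fit run. Egln1, the main HIF prolyl hydroxylase and itself a HIF target, was at 125, 126 and 129 CPM under strain and 320, 270.2 and 334 CPM in controls (−1.28, SE 0.11, adjusted p = 6.8e-05). Egln3, the most inducible prolyl hydroxylase, was at 24.95, 24.4 and 30.6 CPM under strain and 52.1, 48.6 and 56.6 CPM in controls (−0.98, SE 0.12, adjusted p = 7.71e-04). Vhl, which recognises the hydroxylated subunit, was at 44.1, 34.9 and 35.2 CPM under strain and 68.1, 60.0 and 69.6 CPM in controls (−0.79, SE 0.12, adjusted p = 0.00241). In these 3 genes the strain libraries lay below the controls, opposite to Hif1a.

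The remaining sensing genes were not called. Egln2, the prolyl hydroxylase that is not induced by hypoxia, was at 80.1, 86.6 and 101 CPM under strain and 75.7, 79.8 and 94.1 CPM in controls (log2 fold change 0.10, adjusted p = 0.610). Hif1an, the asparaginyl hydroxylase that limits HIF activity, averaged 68.9 ± 5.75 CPM under strain and 62.0 ± 8.83 CPM in controls (adjusted p = 0.443 by edgeR). Epas1, the other alpha subunit, was near the detection limit, at 0.817, 1.74 and 0.969 CPM under strain and 0.627, 0.337 and 0.398 CPM in controls. All 3 strain libraries were above all controls, and the difference missed the threshold (1.35, SE 0.43, adjusted p = 0.0603). In all, 3 of these 7 genes fell and 1 rose, against 7.39% and 5.94% of all genes tested, and 3 were not called.

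**Figure D2:**
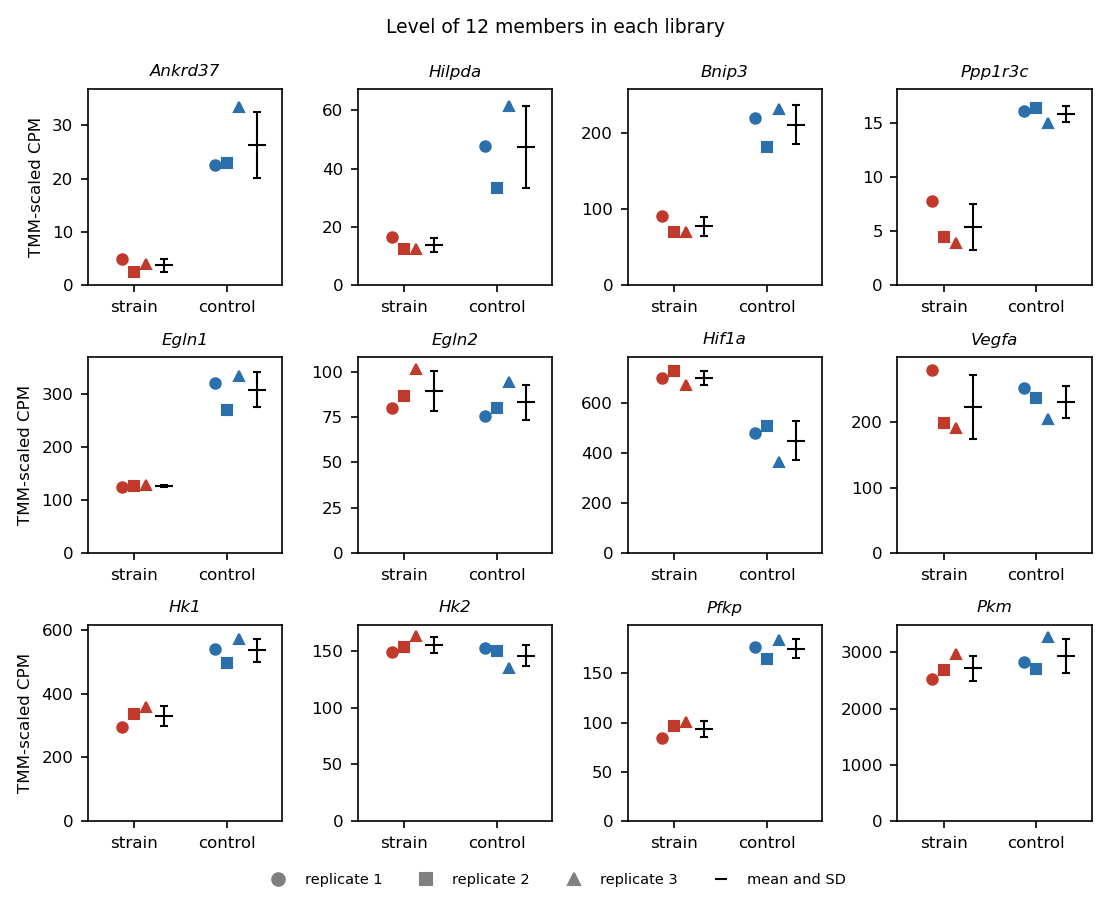
Level of selected members in each library, as TMM-scaled CPM, with strain libraries left of control libraries in each panel; circles, squares and triangles are replicates 1, 2 and 3, and black bars are the group mean and SD. Hif1a stands at 671 to 726 CPM under strain and 361 to 505 CPM in controls, while Egln1 stands at 125 to 129 CPM under strain and 270.2 to 334 CPM in controls.

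All 4 mitophagy and mitochondrial members fell, against 7.39% of all genes tested. Bnip3, a hypoxia-induced receptor on the outer mitochondrial membrane that recruits autophagosomes, was at 91.3, 70.2 and 70.1 CPM in strain replicates 1 to 3 and 220.3, 182 and 232 CPM in control replicates 1 to 3 (log2 fold change −1.45, SE 0.14, adjusted p = 1.39e-04). Bnip3l, its paralog NIX, was at 101, 96.9 and 95.5 CPM under strain and 204, 173 and 229 CPM in controls (−1.05, SE 0.11, adjusted p = 3.3e-04). Both, like Higd1a and Fam162a below, were under all controls in every strain library. The value of Bnip3l is uncertain because of its copy Bnip3l-ps, which was also called lower. Higd1a, an inner membrane protein of the respiratory chain, was at 54.1, 48.1 and 54.3 CPM under strain and 114, 96.6 and 152 CPM in controls (−1.21, SE 0.15, adjusted p = 8.5e-04). Fam162a, a mitochondrial protein linked to cell death in hypoxia, was at 209, 177 and 208 CPM under strain and 349, 292 and 477 CPM in controls (−0.91, SE 0.16, adjusted p = 0.00514). Control replicate 3 was the highest library for all 4 genes, against 28.2% of all genes tested. It was a median of 0.40 log2 units above the mean of the other controls. Without it all 4 were still called lower, against 5.36% of all genes then tested. The median log2 change of the 4 was −0.98, against −1.13 with it, and the largest shift was that of Fam162a to −0.70.

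Both glycogen members fell, against 7.39% of all genes tested, and here control replicate 3 was not the highest. Gys1, the glycogen synthase outside liver, was at 114, 121 and 135 CPM in strain replicates 1 to 3 and 250.005, 219 and 232 CPM in control replicates 1 to 3 (log2 fold change −0.92, SE 0.10, adjusted p = 4.23e-04). Ppp1r3c, a subunit that brings protein phosphatase 1 to glycogen and favours its synthesis, was at 7.78, 4.44 and 3.88 CPM under strain and 16.1, 16.4 and 15.0 CPM in controls (−1.56, SE 0.23, adjusted p = 0.00192). Strain and control libraries did not overlap for either gene. The median of these 2 genes was −1.24 in all libraries and −1.26 without control replicate 3.

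The 3 members that encode subunits of collagen prolyl 4-hydroxylase, which stabilises the collagen helix, were called lower, against 7.39% of all genes tested. P4ha2 was at 341, 389 and 424 CPM under strain and 689, 642 and 734 CPM in controls (log2 fold change −0.84, SE 0.11, adjusted p = 0.00108). P4ha1, like P4ha2 a catalytic subunit, was at 518, 530.3 and 497 CPM under strain and 699, 685 and 740 CPM in controls (−0.46, SE 0.094, adjusted p = 0.0103). P4hb, the shared beta subunit and a protein disulfide isomerase, was at 1535, 1753 and 1791 CPM under strain and 2240, 2064 and 2432 CPM in controls (−0.41, SE 0.11, adjusted p = 0.0361). The groups did not overlap for any of the 3. The P4ha1 call was lost without strain replicate 3 or control replicate 1 (adjusted p up to 0.0602), and the P4hb call in 5 of 6 fits, all but the one without control replicate 2 (up to 0.125).

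The 2 secreted members did not share a pattern. Adm, the vasodilator peptide adrenomedullin, was at 14.0, 12.3 and 9.43 CPM under strain and 22.8, 19.4 and 24.8 CPM in controls (log2 fold change −0.91, SE 0.16, adjusted p = 0.00505). Vegfa, the angiogenic growth factor and a classic HIF target, was at 280.3, 199 and 192 CPM under strain and 252, 237 and 205 CPM in controls (−0.05, adjusted p = 0.861). Strain replicate 1 was the highest Vegfa library and the other strain libraries were the lowest. Without both strain replicate 1 and control replicate 3 it was called lower (−0.32).

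Among 6 transcription and chromatin members 4 fell, against 7.39% of all genes tested. Rcor2, a corepressor that partners the histone demethylase LSD1, was at 48.8, 36.1 and 42.9 CPM under strain and 100.8, 87.4 and 107 CPM in controls (log2 fold change −1.21, SE 0.13, adjusted p = 3.27e-04). Mxi1, an antagonist of MYC, was at 65.1, 56.0 and 56.2 CPM under strain and 121, 105 and 115 CPM in controls (−0.95, SE 0.11, adjusted p = 4.11e-04). These 2, like Kdm4b and Nfil3 below, were lower in every strain library than in any control library. Kdm4b, a histone H3 lysine 9 demethylase, was at 60.5, 60.4 and 66.1 CPM under strain and 106, 103 and 92.8 CPM in controls (−0.69, SE 0.10, adjusted p = 0.00176). Nfil3, a bZIP repressor, was at 55.9, 46.8 and 51.4 CPM under strain and 68.5, 65.3 and 71.2 CPM in controls (−0.41, SE 0.10, adjusted p = 0.0281), a call lost in 3 of the 6 fits that left out 1 library (strain replicate 2, strain replicate 3 or control replicate 1). Kdm3a, another H3 lysine 9 demethylase known to be induced by HIF, averaged 77.7 ± 6.46 CPM under strain and 79.0 ± 7.82 CPM in controls and was not called (adjusted p = 0.910 by edgeR). Bhlhe40, a circadian repressor also known as DEC1, was below all controls in every strain library at 200.2 ± 5.24 CPM under strain and 230.2 ± 12.5 CPM in controls but was not called (adjusted p = 0.174 by edgeR).

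All 6 remaining HIF targets fell, against 7.39% of all genes tested, and these 6 held the largest change of the set. Ankrd37, an ankyrin repeat protein induced by hypoxia, was at 4.85, 2.43 and 3.85 CPM in strain replicates 1 to 3 and 22.6, 22.9 and 33.5 CPM in control replicates 1 to 3. Its level under strain was 0.142-fold that of controls (log2 fold change −2.82, SE 0.25, adjusted p = 8.8e-05), and −2.61 without control replicate 3. Hilpda, which coats lipid droplets and limits lipolysis, was at 16.4, 12.2 and 12.5 CPM under strain and 47.6, 33.3 and 61.6 CPM in controls (−1.79, SE 0.21, adjusted p = 5.22e-04). Its lowest control was above every strain library, as in the other genes of this group. Ak4, a mitochondrial adenylate kinase, was at 30.5, 28.1 and 25.3 CPM under strain and 55.1, 53.1 and 50.7 CPM in controls (−0.92, SE 0.11, adjusted p = 5.15e-04). Ndrg1, a stress-responsive gene of the NDRG family, was at 260.1, 288 and 324 CPM under strain and 534, 456 and 560 CPM in controls (−0.83, SE 0.12, adjusted p = 0.00169). Ccng2, a growth-inhibitory cyclin, changed by −0.62 (adjusted p = 0.00508 by edgeR) and Narf, a nuclear prelamin A recognition factor, by −0.46 (adjusted p = 0.0245 by edgeR). The Narf call was lost in 4 of the 6 fits that left out 1 library (strain replicate 1, strain replicate 3, control replicate 1 or control replicate 2).

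In all, 10 members overlap another tested gene in the annotation, which matters because the strand setting of the counting is not given. Hk1 shares 23378 bases with Hk1os (log2 fold change −0.55, adjusted p = 0.307 by edgeR) and Mxi1 shares 16740 bases with Gm30541 (0.97, adjusted p = 0.233). The overlap of Pfkp with Pitrm1 is 285 bases, that of Ankrd37 with Ufsp2 is 51 bases and that of Gys1 with Ruvbl2 is 1333 bases. None of the overlapping genes was called, and the counts of these members remain uncertain to that extent.

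Control replicate 3 was set apart and checked for the whole set. It was the highest of the 6 libraries for 30 of the 51 members, against 28.2% of all genes tested, while control replicate 1 was the highest for 13, control replicate 2 for 1 and a strain library for 7. The median of control replicate 3 over the mean of control replicates 1 and 2 was 0.14 log2 units, and it was the lowest control for 11 members. With control replicate 3 left out, 32 of the 51 were called lower and 1 higher, against 5.36% lower and 4.44% higher of the 15732 genes then tested. All 32 were among the 36 called before, and the 4 that dropped out were Pfkl, Pfkm, Gapdh and P4hb. The median became −0.61, and the number of members with all strain libraries below both remaining controls was 39. Leaving out a control cannot undo such a separation, and its share over all genes was not computed for 3 against 2 libraries. Leaving out control replicate 1 moved the count more, to 28 members called, against 35 without control replicate 2 and 31 without any 1 strain library. The calls over all genes moved as well, to 369 higher and 610 lower without control replicate 1 and 1085 and 1244 without control replicate 2. Without 1 strain library they were 404 to 781 higher and 577 to 1031 lower, against 911 and 1134 in all libraries.

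**Figure D3:**
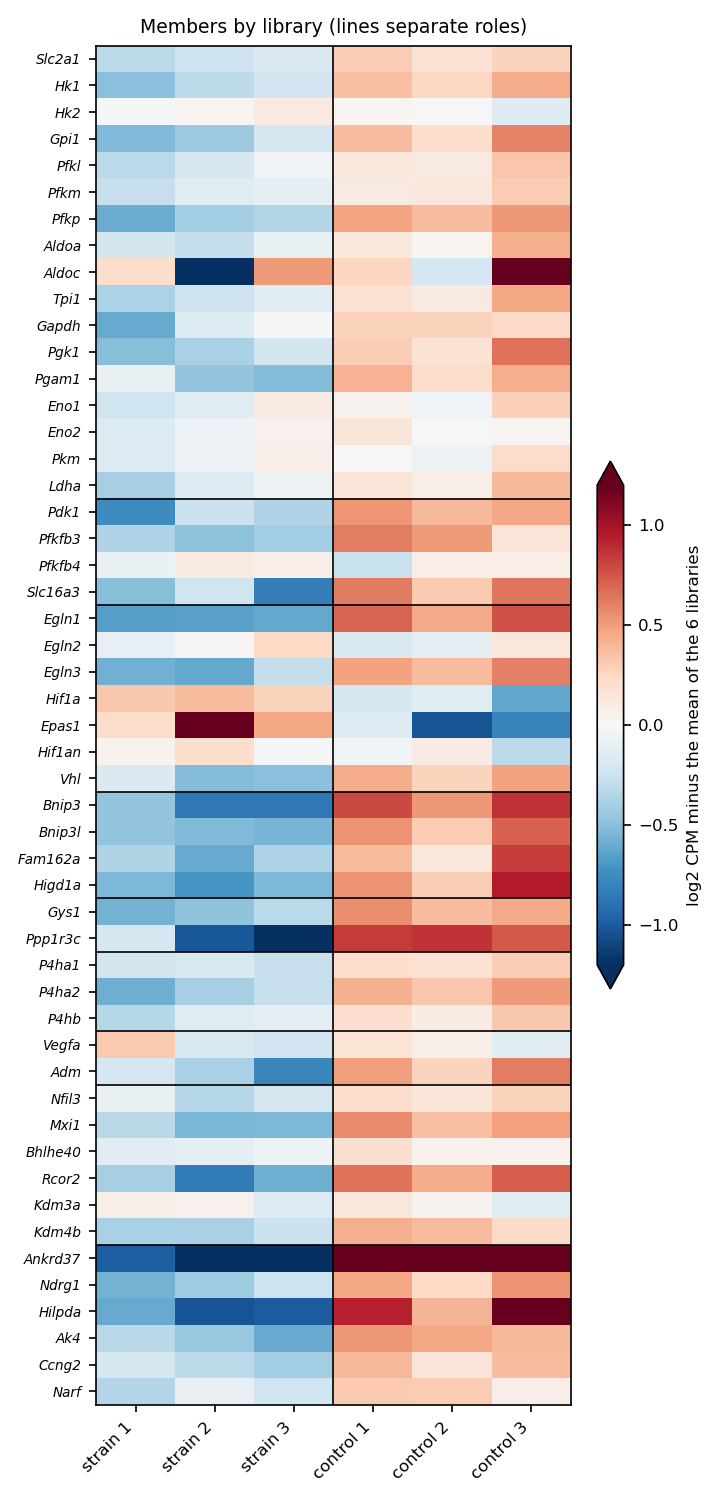
Each row is a member and each column a library, with the 3 strain libraries left of the 3 control libraries; colour is log2(CPM + 0.01) minus the row mean over the 6 libraries, with colours capped at 1.2 log2 units in either direction. The strain columns are lower in most rows, Hif1a and Epas1 run the other way, and control replicate 3 is the highest column in 30 of 51 rows.

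A ratio of 2 related genes within a library needs no scaling between libraries, and 10 such pairs were compared by an exact two-sided permutation test. With 3 against 3 libraries the smallest p is 0.1 (0.143 after Benjamini-Hochberg adjustment over the 10 pairs), so no pair could pass the threshold. In 7 of the 10 the groups did not overlap. No share over other pairs of genes was computed, and among single genes tested the groups separated in 17.9% (strain below) and 17.4% (strain above). The pairs of Hk2 and Hk1, Pfkfb4 and Pfkfb3, and Kdm3a and Kdm4b each set a gene not called against a called one. Their ratios therefore restate that call in part. The log2 ratio of Hk2 to Hk1 was −0.99, −1.14 and −1.13 in strain replicates 1 to 3 and −1.83, −1.73 and −2.08 in control replicates 1 to 3, a difference of 0.80 (exact permutation p = 0.1). The ratio was higher in every strain library than in any control library. The ratio of Pfkp to Pfkl averaged −1.68 ± 0.051 under strain and −1.16 ± 0.079 in controls (SD, n = 3 each), and that of Pfkfb4 to Pfkfb3 averaged −0.20 ± 0.16 under strain and −1.12 ± 0.40 in controls. Kdm3a to Kdm4b averaged 0.32 ± 0.20 under strain and −0.35 ± 0.043 in controls. Bnip3 to Bnip3l averaged −0.35 ± 0.18 under strain and 0.067 ± 0.045 in controls, P4ha2 to P4ha1 −0.43 ± 0.19 under strain and −0.041 ± 0.044 in controls, and Egln3 to Egln1 −2.25 ± 0.16 under strain and −2.55 ± 0.073 in controls. Groups overlapped for Aldoc to Aldoa, Eno2 to Eno1 and Epas1 to Hif1a (exact permutation p = 0.8, 0.7 and 0.2).

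**Figure D4:**
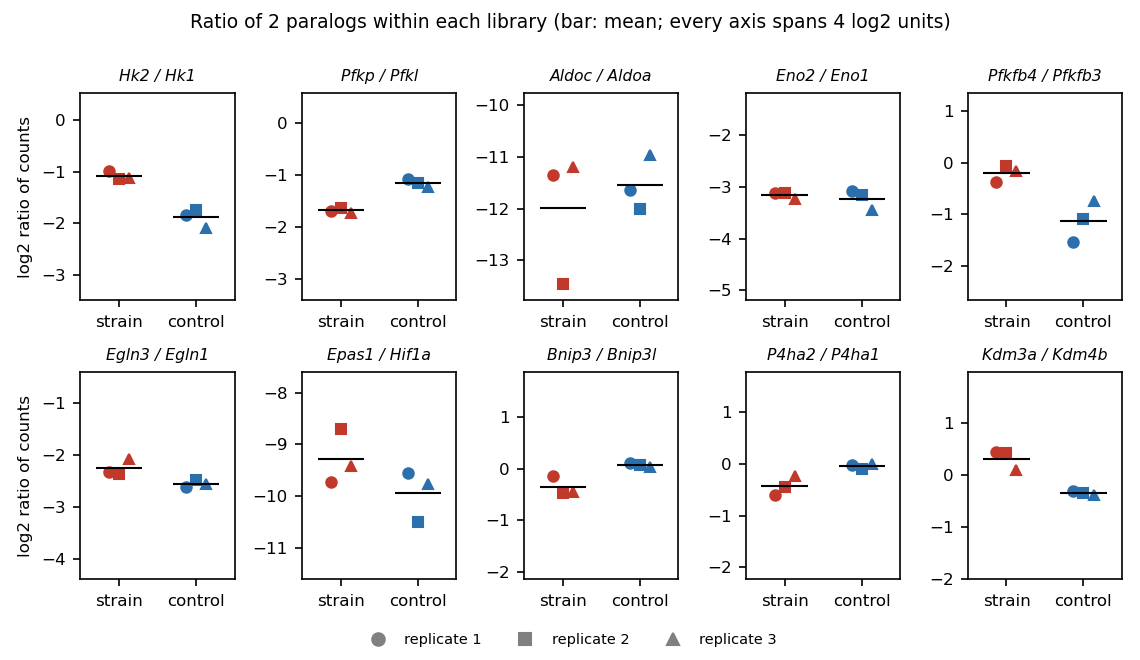
Log2 ratio of the counts of 2 related members in each library, 1 panel per pair, strain libraries left and control libraries right; every vertical axis spans 4 log2 units around the mean of its own pair, and black bars are group means. The Hk2 to Hk1 ratio lies at −0.99 to −1.14 in strain libraries and −1.73 to −2.08 in control libraries.

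Related genes outside the set were counted by list to place the members in their pathways. These lists too were chosen with earlier results of these data known, so they are no independent check. Of 14 other tested glycolysis genes 3 fell (21.4%) and 2 rose (14.3%), and the median log2 change was −0.03. Over all genes tested, 7.39% were called lower and 5.94% higher. Ldhb, the heart-type lactate dehydrogenase, fell (−0.73, adjusted p = 0.00792 by edgeR), as did the pyruvate dehydrogenase kinase gene Pdk3 (−0.68, adjusted p = 0.0052). Pdk4, of the same kinase family as Pdk1, went the other way, at 43.6, 48.6 and 35.7 CPM under strain and 25.2, 28.3 and 20.1 CPM in controls (0.80, adjusted p = 0.00745). Tigar, a fructose 2,6-bisphosphatase, also rose (0.56, adjusted p = 0.0313), but the call was lost in 5 of the 6 fits that left out 1 library, all but the one without control replicate 2.

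Of 17 other tested genes of glycogen metabolism 5 fell (29.4%, against 7.39% of all genes tested) and none rose, with a median of −0.05. Pygl, the liver-type glycogen phosphorylase, was at 1.25, 2.38 and 2.59 CPM under strain and 8.00, 7.25 and 9.50 CPM in controls (log2 fold change −1.99, adjusted p = 9.31e-04). Epm2a, the glycogen phosphatase laforin, was at 1.13, 2.22 and 0.872 CPM under strain and 7.03, 6.32 and 3.33 CPM in controls (−1.99, adjusted p = 0.00644). The other 3, named after their values were seen, were the branching enzyme gene Gbe1 (−1.39), Ppp1r3b (−1.51), a relative of Ppp1r3c, and Stbd1 (−0.81), whose protein tethers glycogen. All 5 were called in every fit that left out 1 library.

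Mitophagy and oxygen-sensing genes outside the set were called at about the share of all genes tested, 13.3%. Of 14 other tested mitophagy genes none fell and 2 rose (14.3%), with a median of 0.12. These were Sqstm1, the cargo receptor p62 (log2 fold change 0.55, adjusted p = 0.0153), whose call was lost without strain replicate 3 or control replicate 1, and Optn, the receptor optineurin (0.35, adjusted p = 0.0438), whose call was lost in 5 of 6 fits, all but the one without control replicate 2. Of 12 other tested oxygen-sensing genes 1 fell (8.33%), the ubiquitin ligase gene Siah2 (−0.37, adjusted p = 0.045), a call also lost in 5 of 6 fits. Their median was 0.05, and Arnt, the beta subunit of HIF, was not called (0.29, adjusted p = 0.165).

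Of 21 other tested HIF targets 10 fell (47.6%) and 1 rose (4.76%), with a median of −0.43. The shares of all genes tested were 7.39% lower and 5.94% higher, and this list was likewise chosen with earlier results known. Pgf, the placental growth factor gene, was at 0.384, 0.588 and 0.485 CPM under strain and 5.62, 4.63 and 4.92 CPM in controls (log2 fold change −3.38, adjusted p = 3.27e-05). Car9, the carbonic anhydrase often used as a hypoxia marker, was at 0.432, 0.481 and 0.0727 CPM under strain and 1.57, 2.33 and 2.87 CPM in controls. It passed the filter through the control libraries alone, so its place among the 10 is not read as support. Ero1l, the endoplasmic reticulum oxidase gene, named after its value was seen, was at 138, 118 and 117 CPM under strain and 389, 320.3 and 311 CPM in controls (−1.45, adjusted p = 6.89e-05). Tfrc, the transferrin receptor, rose (0.93, adjusted p = 3.05e-04). Its libraries stood at 97.0, 103 and 91.9 CPM under strain and 52.4, 53.4 and 47.6 CPM in controls.

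Pathways that use glucose carbon elsewhere gave few calls, in counts too small to set apart from the 7.39% lower and 5.94% higher of all genes tested. Of 21 genes of pyruvate entry and the citric acid cycle none fell and 2 rose, with a median of 0.10: Pcx, pyruvate carboxylase (log2 fold change 0.72, adjusted p = 0.00248), and Idh3a, an isocitrate dehydrogenase subunit (0.37, adjusted p = 0.0361), whose call was lost in 5 of the 6 fits that left out 1 library. Of 7 pentose phosphate genes none fell and 2 rose, with a median of −0.05: Pgd, 6-phosphogluconate dehydrogenase (0.70, adjusted p = 0.00929), and G6pdx, which makes the first NADPH of the pathway (0.46, adjusted p = 0.00758). G6pdx lost its call without strain replicate 3 or control replicate 1 (adjusted p up to 0.0611). Without control replicate 3, none of the citric acid cycle and pentose phosphate genes was called lower and 1 and 3 of them were called higher.

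**Figure D5:**
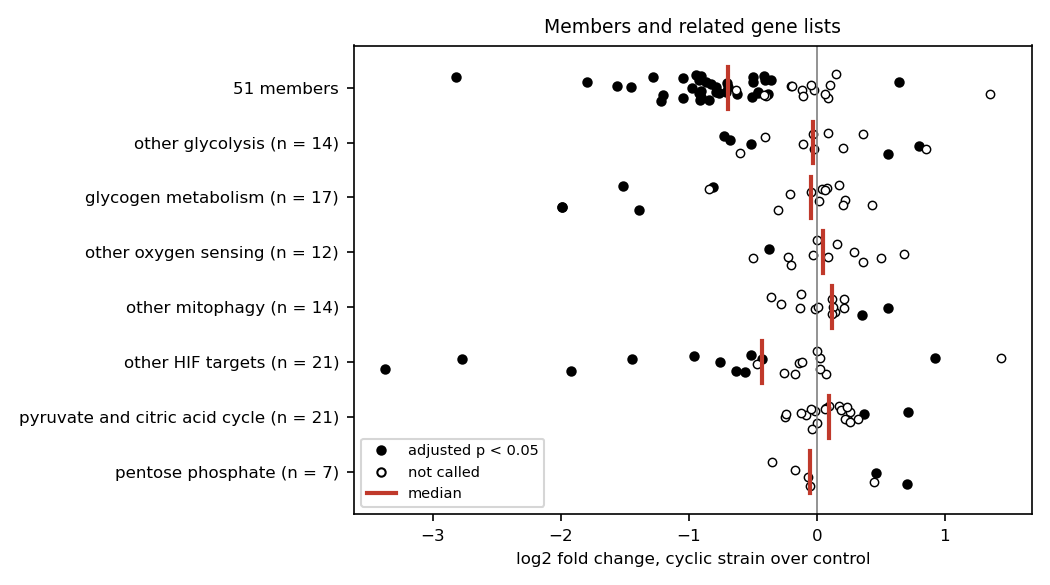
Log2 fold change, strain over control, of the members and of 7 lists of related genes (1 row per list, 1 point per tested gene, filled where the adjusted p was under 0.05, bar at the median). The members have a median of −0.69 and the other HIF targets −0.43, while the medians of the other 6 lists lie between −0.05 and 0.12.

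Promoter windows were found for 46 of the 51 members, 69 windows in all since some genes have several starts. The response element core was present in 53 of the 69 (76.8%), against 60.2% of 13497 windows of the same length of genes tested here. Counted by gene, 39 of 46 had it in at least 1 window (84.8%), against 66.4% of 10520 tested genes. Members had more windows per gene (69 for 46 genes, against 13497 for 10520), which raises a share counted by gene. Some windows of 1 gene overlap and repeat the same letters, so counts by window are not of separate sequences. CACGTG was present in 9 of the 69 windows (13.04%), against 9.74% of those of tested genes. Shares of short letter strings depend on base composition, which was not matched here.

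Accessibility at these windows was available in the cells of the Piezo1 experiment, for which no strain is stated, as peak lists called separately in each library. The lists held 15980 and 13610 peaks in Piezo1 knockout replicates 1 and 2 and 15978 and 26652 peaks in GFP control replicates 1 and 2, so list length alone differs between libraries. A peak overlapped a promoter window by at least 1 base for 27 and 25 of the 46 members (58.7% and 54.4%) in knockout replicates 1 and 2 and for 23 and 31 (50.0% and 67.4%) in GFP replicates 1 and 2. Over tested genes with a window, the shares were 50.5% and 49.8% in the knockout and 45.9% and 62.9% in the GFP libraries. Members had more windows per gene, which raises a share counted by gene here too. In 20 members (43.5%) a peak was present in all 4 libraries, against 37.7% of tested genes with a window, and 33 (71.7%) had one in at least 1 library, against 66.3%. In 1 member there was a peak in both knockout and neither GFP library, and in 1 the reverse, against 65 and 280 of the 10520 tested genes. Of the promoters printed above, those of Hif1a and Ankrd37 had peaks in all 4 libraries. For Ankrd37 the highest fold enrichment over local background, the authors' own value, was 7.33 and 4.90 in knockout replicates 1 and 2 and 5.38 and 7.14 in GFP replicates 1 and 2. Bnip3 had a peak in knockout replicate 1 and GFP replicate 2, and Egln1 and Pfkp had peaks in GFP replicate 2, the longest list, alone. Ppp1r3c had none. Accessibility under strain was not measured here.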

How the data were processed

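For RNA-seq the authors deposited whole-number counts of reads for each gene symbol in 6 libraries, and for ATAC-seq 1 peak list per library, without pooling. A single-cell kit amplified full-length cDNA, per the labels' protocols, and no molecular identifiers are named, so reads need not be independent molecules. Trim Galore 0.6.5, STAR, HTSeq, DESeq2, Bowtie2 2.4.2, MACS2 and mm10 are named in the submitters' processing notes. Not given in the sources used here are the annotation, the strand setting, the treatment of reads that map to several places and the peak threshold. Fold enrichment in the deposited lists is a ratio to local background, given with −log10 p and −log10 q values, and these were used only to describe and filter peaks within a list.

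The 51 members and the lists of related genes were chosen with earlier results of these data known. Strain was compared with control by edgeR 4.0.16 (glmQLFit and glmQLFTest with trended dispersion, two-sided, R 4.3.3) on the counts of all genes, after TMM scaling and filterByExpr (minimum count 10, a CPM of about 0.264), with no replicate block. Calls were made under a Benjamini-Hochberg adjusted p of 0.05 over 15335 genes. Printed CPM are TMM-scaled, and SE is the absolute log2 fold change over the square root of the F statistic. Values per library are given for up to 4 called members per role with the smallest adjusted p and for some others, and related lists name at most 2 called genes per direction unless stated. Ratios of 2 members used counts plus 0.5 and an exact permutation test. Promoters are RefSeq windows of GRCm38.p6, matched by symbol (30 members have a window at the gene's outermost 5′ end), and all 51 members matched a RefSeq symbol. Alternatives were DESeq2 1.42.0, limma 3.58.1 (voom), other scalings, no filter, a replicate block and fits with libraries left out.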

Additional observations from a re-analysis of the deposited data

How the results depend on the processing

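Of the 51 members, 37 were called in all libraries, and 40 with DESeq2, 38 with limma-voom, 36 with DESeq2-type size factors, 34 with library size alone, 40 without the count filter, and 28 to 35 with 1 library left out. Of the 37, 28 were called under all 13 alternatives. Epas1 made 2 members higher with DESeq2 and without the filter. The count of glycolytic genes called lower was 5 to 9 with 1 library left out. The median of the members was −0.58 without both control replicate 3 and strain replicate 1, a fit that called 36 members, and reached −0.7535 with 1 library left out (control replicate 2). Some members that were not called changed sign: Vegfa and Kdm3a with library size alone (0.0046 and 0.0256), and with 1 library or both of those libraries left out Pkm (−0.18 to 0.0272), Pfkfb4 (−0.0398 to 0.18), Egln2 (−0.0030 to 0.27), Vegfa (−0.32 to 0.0434) and Kdm3a (−0.14 to 0.0407). The difference in log2 ratio lay between −0.857 and 0.277 for Aldoc to Aldoa and between −0.0350 and 0.141 for Eno2 to Eno1 with 1 library left out. The cause was not tested. Replicate numbers share no stated source, and same-numbered libraries deviated together only weakly (r = 0.03, 0.21 and 0.09 across genes), with strain replicate 1 closer to control replicate 3 (0.09) than to control replicate 1. With the number as a replicate block 39 members were called, and over all genes 1557 were higher and 1619 lower, against 911 and 1134 without it. Over all genes the counts were 1428 and 1574 without the filter, 1512 and 1614 without both libraries, 369 and 610 without control replicate 1, 420 and 661 without strain replicate 2, 404 and 577 without strain replicate 3, and 1169 and 935 with library size alone. Peaks within 1 kb of the start site, or in the window at a −log10 q of 5 or more, left 22 and 18 members with a peak in all 4 libraries. Members under about 1 CPM, Epas1 and Aldoc, are limited by depth.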
